A study of Sus scrofa with 24 samples.

Results

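The diet comparison asked how medium chain triglycerides (MCT) in the feed of young piglets, set against a control diet (CON), related to gene expression in the oxyntic mucosa, which is the acid-secreting stomach lining, over both types of early microbiota. The 12 piglets with MCT in the sample title were compared with the 12 with CON, which together were all 24 samples of the series. Each gene's value was the mean of the MCT minus CON difference within each microbiota group. All 10912 genes with 1 symbol in the annotation were compared, each by its brightest transcript cluster.

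The piglets were (Great York x Pietrain) x 'Dalland' crosses, born by caesarean section, artificially fed and 3 weeks of age when the mucosa was taken, and 1 array was run on the total RNA of each. All of them had received pasteurized colostrum of sows and a starter of Lactob. Amylovorus, Clostr. glycolicum and Parabacteroides spp., after which the complex association (CA) was given diluted faeces from an adult sow and the simple association (SA) a placebo. Each of the 4 groups had 6 piglets, numbered 1 to 6 for CA CON and 7 to 12 for CA MCT, with 13 to 18 for SA CON and 19 to 24 for SA MCT. Coconut oil replaced soy and palm oil in the MCT diet, according to the study's methods, so an effect of the fat put in cannot be told apart from one of the fats taken out. The labels place CA and SA in separate rooms with 2 pens each and describe litters as balanced, but they assign no piglet to a litter, pen or sex and no array to a strip or a scan date. Piglets were therefore taken as independent, which could not be checked. The study gives feed intake by pen, so an effect of the pen may not be separable from one of the diet. By the labels, a contrast of CA with SA, the interaction included, cannot be told apart from one between the rooms. If piglets of a pen were alike, the intervals below would be too narrow. The labels also describe a test of jejunal loops in older piglets, which is not the tissue analysed here.

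Medium chain fatty acids are released from triglycerides by lipase already in the stomach. They are taken up without chylomicrons and enter mitochondrial beta-oxidation largely without the carnitine shuttle. One of them, octanoate, is attached to the peptide ghrelin by the enzyme encoded by MBOAT4, a step that ghrelin needs to bind its receptor. The oxyntic mucosa holds the parietal cells that secrete acid, chief cells that secrete pepsinogen, mucous cells and the endocrine cells that make ghrelin and histamine. In such bulk tissue, fewer cells of a type and less RNA per cell cannot be told apart.

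The tissue markers were bright on every array. ATP4A, the catalytic subunit of the gastric proton pump, had an intensity between 3029 and 3881, and GHRL, which encodes ghrelin, between 620 and 1176. The median intensity per array was 23.13 to 26.4. The median correlation with the other arrays was 0.946 for CA CON pig 4, 0.975 for CA MCT pig 10 and 0.981 for SA MCT pig 22, against 0.987 to 0.992 for the other 21 arrays. All arrays were kept, and several of the values that moved when a piglet was left out are also given without it.

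The diet comparison over both microbiota passed 0 of 10912 genes at an adjusted p under 0.05 in limma (background 0%), and the lowest adjusted p was 0.9999. At an unadjusted p under 0.05, 255 genes (2.34%) were counted, 150 of them higher on MCT (1.37%) and 105 lower (0.962%), where 5% of the genes would be 546. With the arrays centred on the same median these counts were 98 and 141, so the share of higher genes was 41.0% in place of 58.8%. No gene had 12 MCT values that lay apart from the 12 CON values (0%). The differences themselves were small: their median was 0.0019 on the log2 scale, 51.1% were positive, and the median standard error was 0.080.

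The intervals show how large a diet difference these arrays left possible, with piglets taken as independent. The 95% interval of the difference, taken gene by gene without adjustment for the number of genes, lay within a 1.2-fold change in either direction for 7356 genes (67.4%), within 1.5-fold for 10787 genes (98.9%) and within 2-fold for 10902 genes (99.9%). Only 3 genes had an estimated difference past 1.5-fold, namely MUC13 with 0.71, MMP13 with 0.68 and LOC100515902 with -0.64 log2. Within a single microbiota group, with 6 piglets on each diet, the interval lay within 1.5-fold for 10138 genes (92.9%) in CA and for 10377 genes (95.1%) in SA.

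The CA and SA piglets gave separate estimates of the diet difference, from different animals that shared no controls. Across the 10912 genes the difference in CA and that in SA had the same sign in 5423 (49.7%). Their correlation across genes was -0.0148 (Pearson's r) and 0.00164 (Spearman's rho), given as a description because genes of the same arrays are not independent. Positive differences made up 50.6% of genes in CA and 52.5% in SA. In CA 0 genes passed in limma (0%) and 328 had an unadjusted p under 0.05 (3.01%), with 181 higher (1.66%) and 147 lower (1.35%). In SA 0 passed (0%) and 222 had such a p (2.03%), with 132 higher (1.21%) and 90 lower (0.825%). The interaction, the SA difference minus the CA difference, passed 0 genes (0%), with 276 at an unadjusted p under 0.05 (2.53%), of which 137 were higher in SA (1.26%) and 139 lower (1.27%), and with 51% of its values positive. Without CA CON pig 4 the unadjusted counts were 201 higher and 149 lower in SA, and 231 higher in the interaction.

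**Figure D1:**
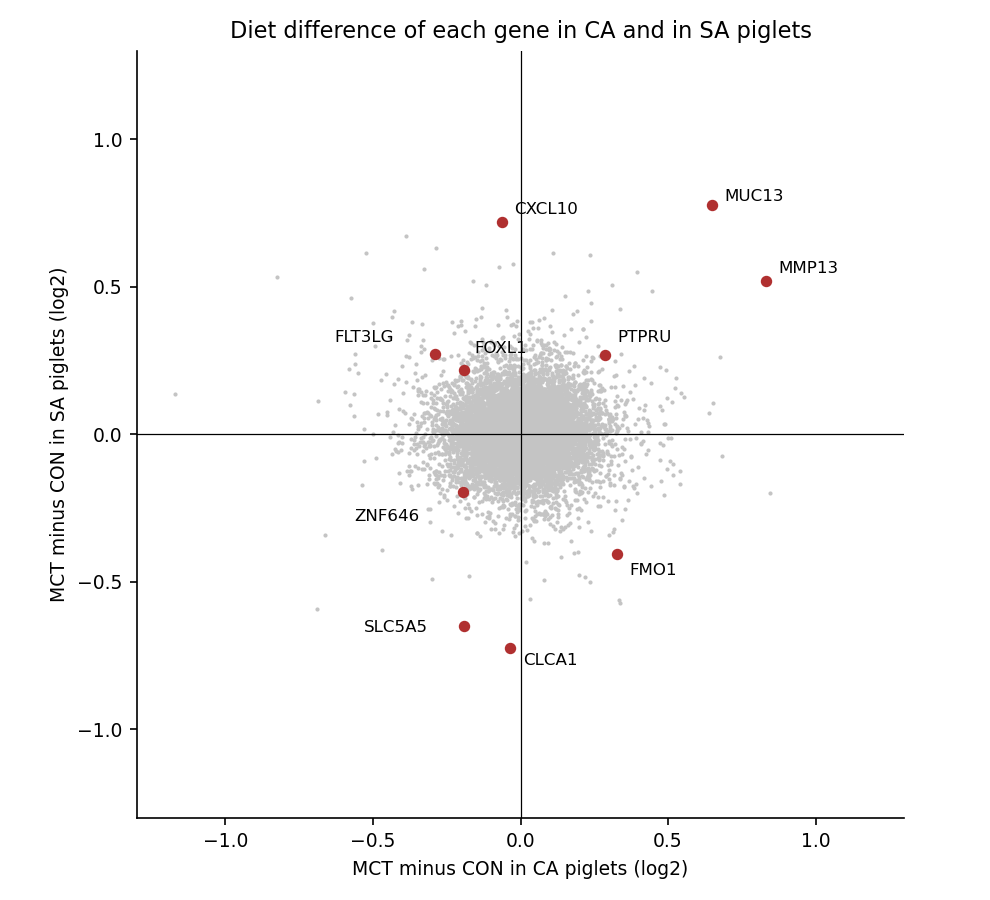
Each point is 1 of 10912 genes, with its MCT minus CON difference in CA piglets on the horizontal axis and in SA piglets on the vertical axis, both in log2 units (n = 6 piglets per group). The cloud is round about 0, with MUC13 and MMP13 apart from it at the upper right and CXCL10 high in SA alone; 10 genes named in the text are marked in red.

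An unadjusted p under 0.05 in both microbiota groups was found for 5 genes, 2 with the same direction (0.0183% of genes) and 3 with opposite directions (0.0275%). PTPRU, which encodes a receptor tyrosine phosphatase of cell contacts, had log2 levels from 3.39 through a median of 3.72 to 4.06 in the 12 MCT piglets and from 3.25 through 3.45 to 3.69 in the 12 CON piglets. Of the 12 MCT piglets 6 lay above the highest CON piglet and 4 CON piglets lay below the lowest MCT piglet, so the diets overlapped in the middle of the range. The difference of PTPRU was 0.28 ± 0.076 (SE) over both (unadjusted p = 0.00115, adjusted p = 0.9999 in limma), with 0.29 in CA and 0.27 in SA. The gene ZNF646, which encodes a zinc finger protein, had log2 levels from 4.00 through a median of 4.40 to 4.55 in the 12 MCT piglets and from 4.50 through 4.53 to 4.73 in the 12 CON piglets. The MCT piglets were below the lowest CON piglet in 11 of 12 cases, and CA MCT pig 8 was the exception. The difference of ZNF646 was -0.20 ± 0.053 (SE) (unadjusted p = 0.00106, adjusted p = 0.9999 in limma), with -0.20 in CA and -0.20 in SA, and it lay between -0.22 and -0.16 when each piglet was left out in turn. ZNF646 was dim, at a mean log2 level of 4.47, where the median gene had 5.26.

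The 3 genes with opposite directions nearly cancelled over both. FMO1, a flavin-dependent oxygenase, had a difference of 0.33 in CA and -0.41 in SA, which averaged to -0.040. FLT3LG, the ligand of a receptor on dendritic cell precursors, had -0.29 and 0.27, and FOXL1, a transcription factor of the mesenchyme under the gut epithelium, had -0.19 and 0.22. Their interactions had an unadjusted p of 0.00194 to 0.00350 and none passed in limma.

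MUC13, a membrane mucin of gastric and intestinal epithelium, had the highest estimate of all genes. Its log2 levels ran from 6.17 through a median of 7.09 to 8.14 in the 12 MCT piglets and from 5.46 through 6.21 to 7.10 in the 12 CON piglets. Of the MCT piglets 6 were above every CON piglet and 5 CON piglets were below every MCT piglet, while the rest overlapped. The difference was 0.71 ± 0.23 (SE), or 1.64-fold, with a 95% interval of 0.24 to 1.19 (unadjusted p = 0.00486, adjusted p = 0.9999 in limma). It was 0.65 in CA and 0.78 in SA, and 0.60 to 0.79 with each piglet left out. MMP13, a collagenase, had an estimate of similar size with a wider spread. Its log2 levels ran from 7.84 through a median of 8.50 to 9.31 in the 12 MCT piglets and from 5.87 through 7.84 to 9.89 in the 12 CON piglets. The MCT piglets lay inside the CON range, which was the wider one on both sides, and the difference was 0.68 ± 0.36 (SE) (unadjusted p = 0.0762).

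**Figure D2:**
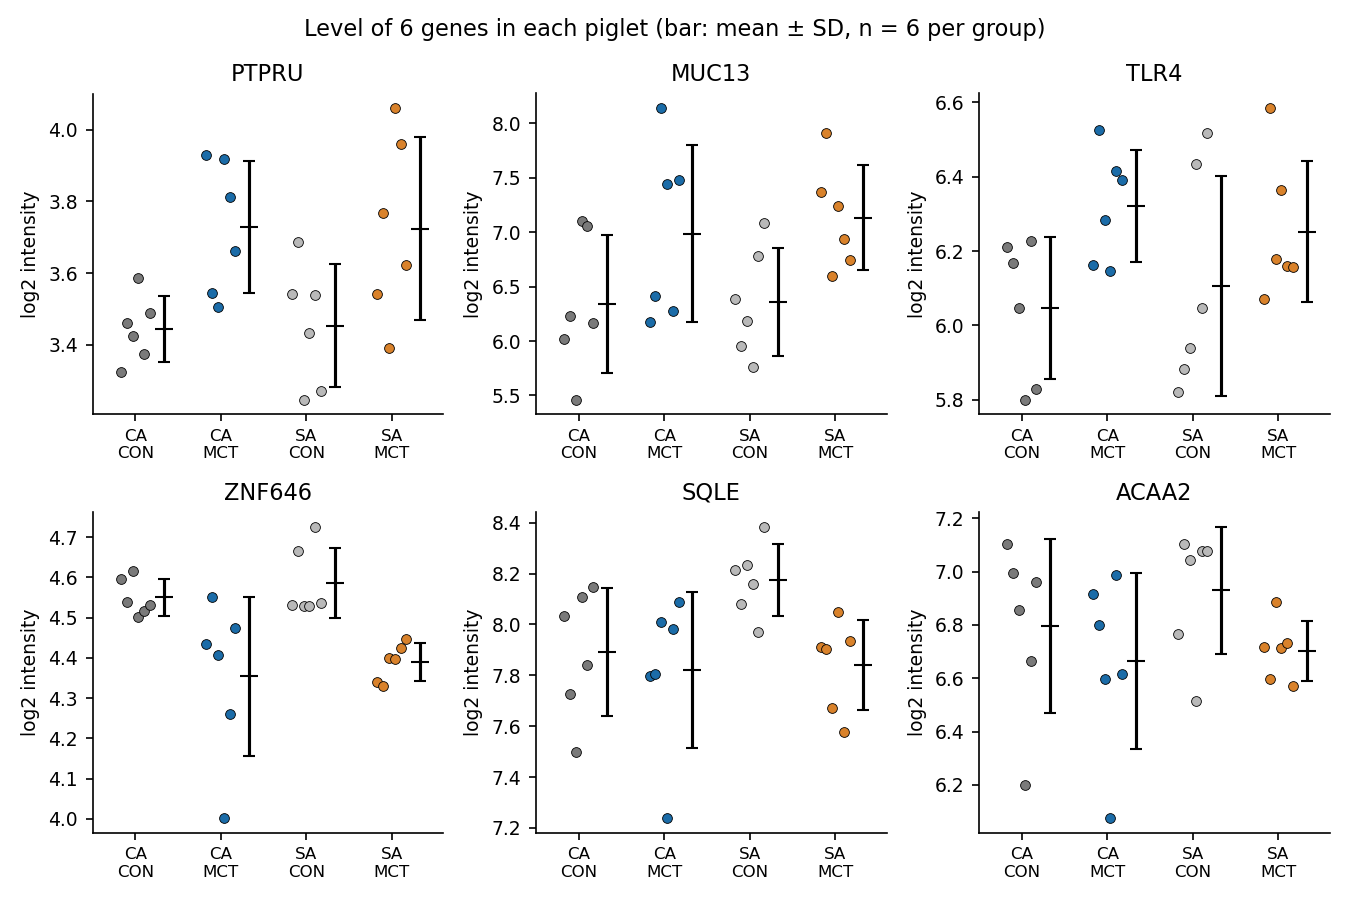
Log2 intensity of 6 genes in each piglet, by group, with the mean ± SD of 6 piglets as a bar beside the points. In ZNF646, 11 of 12 MCT piglets lie below every CON piglet, whereas in PTPRU, MUC13, TLR4, SQLE and ACAA2 the diets overlap more widely.

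The other genes with the highest moderated t were of several kinds. RBMS3, which encodes an RNA-binding protein, had 0.19 ± 0.063 and a level above the CON median in 12 of 12 MCT piglets. CD226, an activating receptor of T and NK cells, had 0.34 ± 0.12, and the microRNA gene MIR21 had 0.47 ± 0.16, with 0.68 in CA and 0.26 in SA. TRDMT1, a methyltransferase of transfer RNA, had 0.20 ± 0.066, SRPX2 had 0.26 ± 0.092, GPR52, an orphan receptor, had 0.19 ± 0.060 and SLC22A16, a carnitine transporter, had 0.19 ± 0.065. The set also held ASTE1 (0.22), ZC3H12B (0.16) and LOC100156488 (0.23). Their unadjusted p lay between 0.00115 and 0.0083, and 9 of these 12 genes were dimmer than the median gene.

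Among the 12 genes with the lowest moderated t, 9 were dimmer than the median gene and the unadjusted p lay between 0.00106 and 0.0124. PNMT, the enzyme that makes adrenaline from noradrenaline, had -0.22 ± 0.075 at a mean log2 level of 2.82. SARDH, the mitochondrial enzyme that oxidises sarcosine, had -0.18 ± 0.068, and 0 of 12 MCT piglets lay above the CON median. GTSE1, a protein of the G2 and S phases of the cell cycle, had -0.24 ± 0.080, and TRIM29 had -0.17 ± 0.061. RAB13, a small GTPase of tight junction traffic, had -0.17 ± 0.061, IMMP1L, a peptidase subunit of the inner mitochondrial membrane, -0.18 ± 0.064 and PFDN2, a prefoldin subunit, -0.15 ± 0.051. The remaining ones were UNCX (-0.21), ADIRF (-0.30), TEKT5 (-0.20) and LOC100154334 (-0.39).

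Genes that handle medium chain fatty acids did not have higher levels on MCT as a group. Of 30 listed genes 21 were measured, of which 3 had a positive and 18 a negative difference, with a median of -0.043 (-0.084 in CA and -0.015 in SA), and 0 had an unadjusted p under 0.05 in either direction. For comparison, the median over all genes was 0.0019. ACADM, the medium chain acyl-CoA dehydrogenase that takes the first step of their oxidation, had log2 levels from 7.63 through a median of 8.07 to 8.27 in the 12 MCT piglets and from 7.67 through 8.04 to 8.45 in the 12 CON piglets. The diets covered the same range, and the difference was -0.043 ± 0.080 (SE) with a 95% interval of -0.21 to 0.12. ACAA2, the last thiolase of the mitochondrial cycle, had levels from 6.07 through a median of 6.72 to 6.99 in the 12 MCT piglets and from 6.20 through 6.98 to 7.10 in the 12 CON piglets. In 11 of 12 MCT piglets ACAA2 was below the CON median, and CON pig 4 and MCT pig 10 had the lowest values of their diets, while the difference was -0.18 ± 0.10 (SE) (unadjusted p = 0.0953). HADHA, a subunit of the trifunctional protein, had -0.12 ± 0.072 (-0.079 without CA CON pig 6), HSD17B10, a dehydrogenase of the same cycle, -0.10 ± 0.053 and CROT, the peroxisomal octanoyltransferase, -0.11 ± 0.071.

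Targets of PPAR alpha, the receptor that responds to fatty acids, were spread around 0. Of 27 measured members 11 had a positive difference, and the median was -0.040 (-0.011 without pigs 4, 10 and 22). At an unadjusted p under 0.05 there were 0 members in the higher (1.37% of all genes) and 2 in the lower direction (0.962% of all genes). They were CD36, a fatty acid transporter of the plasma membrane, with -0.20 ± 0.092 (unadjusted p = 0.0429 in limma), and ACADL, a long chain acyl-CoA dehydrogenase, with -0.16 ± 0.073 (unadjusted p = 0.0374 in limma). ACADL was below the lowest CON piglet in 6 of 12 MCT piglets. CPT1A, the gate of the carnitine shuttle, had -0.050 ± 0.055, PDK4, the kinase that holds pyruvate out of oxidation, -0.19 ± 0.15 (-0.12 without CA CON pig 6) and ANGPTL4, a lipase inhibitor, -0.043 ± 0.10. TRIB3, a pseudokinase of nutrient stress, had 0.20 ± 0.14, which was 0.090 without SA MCT pig 20. The 95% intervals of CPT1A (-0.16 to 0.064), ACADM and ANGPTL4 (-0.26 to 0.17) all lay inside 1.5-fold. The electron carriers downstream had a median of -0.048 over 21 respiratory chain genes (-0.031 without CA CON pig 4), 5 of them positive and 0 with an unadjusted p under 0.05. Positive differences were found for 2 of 21 in CA (median -0.070) and for 12 of 21 in SA (median 0.016). NDUFB8 and NDUFB9, subunits of the NADH dehydrogenase, had -0.093 ± 0.059 and -0.13 ± 0.074 over both.

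Cholesterol synthesis was the list in which all measured members had a difference of one sign over both. The difference was negative for 14 of 14 measured genes, with a median of -0.083 and single values between -0.20 and -0.019. It was negative for 8 of 14 in CA (median -0.054) and for 14 of 14 in SA (median -0.16). SQLE, the epoxidase that commits squalene to sterols, had log2 levels from 7.24 through a median of 7.91 to 8.09 in the 12 MCT piglets and from 7.50 through 8.09 to 8.38 in the 12 CON piglets. All 12 MCT piglets were below the CON median, 6 CON piglets were above every MCT piglet, and the difference was -0.20 ± 0.090 (SE) (unadjusted p = 0.0338). FDPS, which makes the farnesyl unit of squalene, had levels from 6.57 through a median of 6.96 to 7.26 in the 12 MCT piglets and from 6.88 through 7.02 to 7.48 in the 12 CON piglets. Of the MCT piglets 5 were below every CON piglet, 2 CON piglets were above every MCT piglet, and the difference was -0.18 ± 0.073 (SE) (unadjusted p = 0.0243). STARD4, a carrier of cholesterol, had -0.15 ± 0.087 (-0.084 without CA CON pig 4), and MSMO1, a methylsterol oxidase, had -0.13 ± 0.081. HMGCS1, the synthase at the head of the pathway, had -0.12 ± 0.093 (0.015 in CA and -0.26 in SA). SQLE and FDPS were 2 of 14 with an unadjusted p under 0.05 (2.34% of all genes), none passed in limma, and without pigs 4, 10 and 22 the difference was negative for 13 of 14.

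Fatty acid synthesis stood on the other side of 0 only slightly. Of 22 measured members 14 had a positive difference, with a median of 0.016 and 0 at an unadjusted p under 0.05, and the sign of this median turned with array weights (-0.0079), without CA CON pig 4 (-0.013, 10 of 22 positive) and without pigs 4 and 10 (-0.0045). THRSP, a regulator of lipogenesis, had 0.35 ± 0.19, which was 0.23 without CA MCT pig 10. SCD, the delta-9 desaturase, had 0.11 ± 0.13, which was 0.044 without SA MCT pig 20 and 0.18 without SA MCT pig 21. ME1, which supplies NADPH, had 0.16 ± 0.17, which was 0.090 without SA CON pig 13 and 0.28 without SA CON pig 18. The genes FASN and GPR84 had no cluster under these symbols among the genes compared and are not analysed here.

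**Figure D3:**
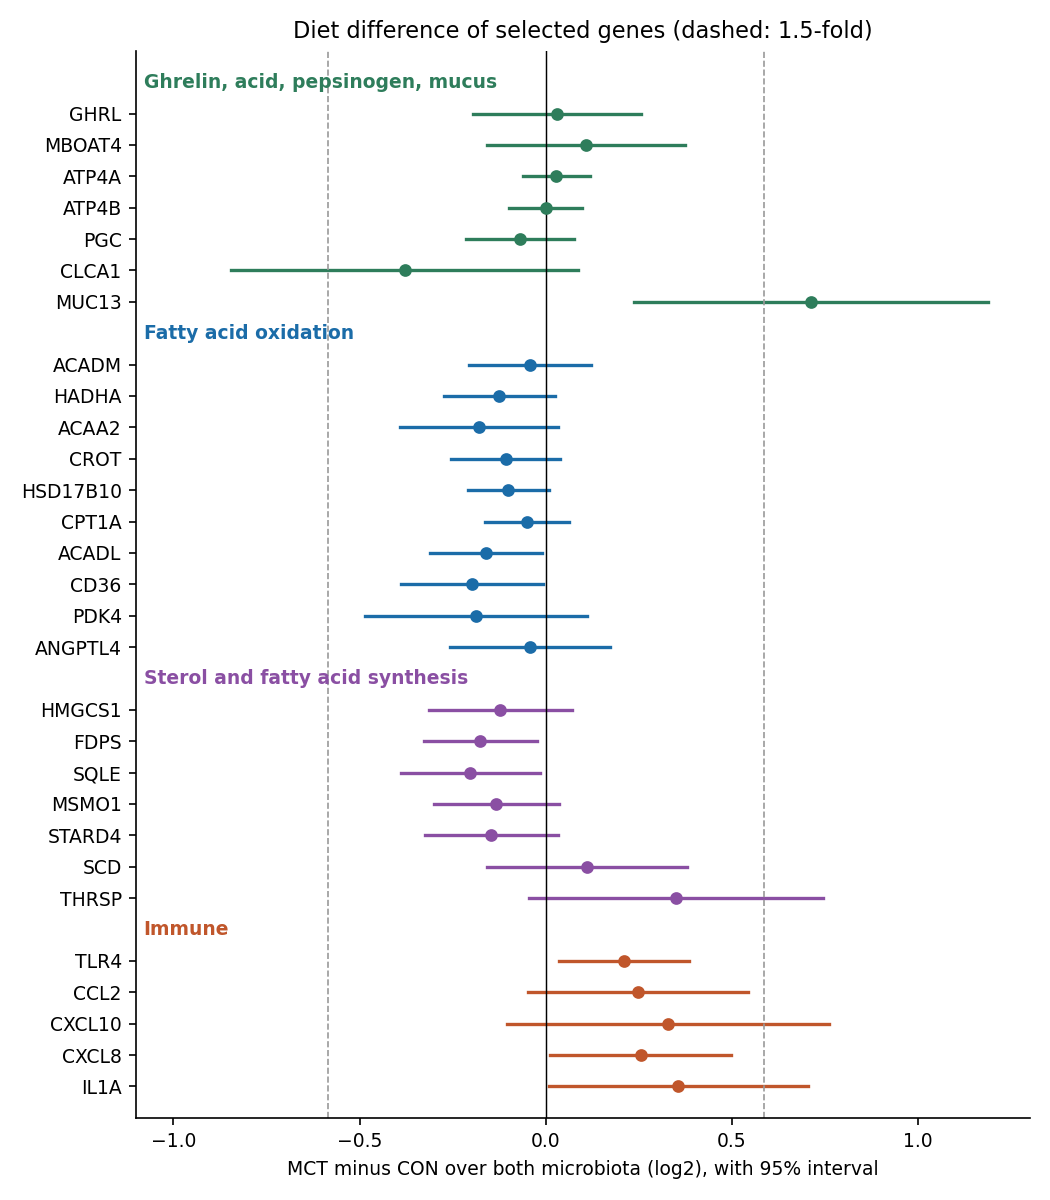
MCT minus CON difference over both microbiota in log2 units for 29 genes, as points with 95% intervals (12 piglets per diet, limma, not adjusted for the number of genes), and dashed lines at 1.5-fold. The intervals of the proton pump subunits ATP4A and ATP4B are the narrowest, and those of MUC13, CLCA1, THRSP, CXCL10 and IL1A reach past 1.5-fold.

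The genes of ghrelin showed little difference between diets. GHRL had log2 levels from 9.33 through a median of 9.85 to 10.20 in the 12 MCT piglets and from 9.28 through 9.88 to 10.18 in the 12 CON piglets. The ranges nearly coincided, and the difference was 0.030 ± 0.11 (SE) with a 95% interval of -0.20 to 0.25. MBOAT4, which encodes the ghrelin acyltransferase, had levels from 3.93 through a median of 4.62 to 5.10 in the 12 MCT piglets and from 3.98 through 4.56 to 5.02 in the 12 CON piglets. MCT pig 10 was the lowest and MCT pig 19 the highest of all 24, and the difference was 0.11 ± 0.13 (SE) with an interval of -0.16 to 0.37, -0.062 in CA and 0.28 in SA, and over both 0.061 without SA CON pig 16 and 0.17 without CA MCT pig 10. Of 22 measured endocrine genes 11 had a positive difference (median -0.012) and 0 an unadjusted p under 0.05. CPE, the carboxypeptidase that trims prohormones, had 0.19 ± 0.12 (0.12 without SA CON pig 15), SCG5, a chaperone of prohormone convertase, -0.11 ± 0.086 (-0.065 without CA MCT pig 10) and NTS, which encodes neurotensin, -0.14 ± 0.11, the last of which was -0.030 without CA CON pig 4.

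The proton pump genes ATP4A and ATP4B had narrower intervals than AQP4 and CCKBR, other genes of the parietal cell list. ATP4A had log2 levels from 11.73 through a median of 11.80 to 11.92 in the 12 MCT piglets and from 11.56 through 11.82 to 11.88 in the 12 CON piglets. The diets overlapped almost fully, and the difference was 0.028 ± 0.044 (SE) with an interval of -0.062 to 0.12. ATP4B, the beta subunit of the pump, had -0.00042 ± 0.048, a sign that turned when any of 11 piglets was left out. Over the parietal cell list 8 of 16 measured genes had a positive difference (median 0.0071), and AQP4, a water channel, and CCKBR, the gastrin receptor, had -0.19 ± 0.19 and -0.13 ± 0.13. Without SA MCT pig 22 the difference of AQP4 was -0.10, and that of CCKBR was -0.068 without CA MCT pig 7 and -0.22 without SA CON pig 18. PGC, a pepsinogen of chief cells, had -0.069 ± 0.070 (-0.044 without CA MCT pig 9), and 6 of 11 genes of chief and mucous neck cells were positive (median 0.0090). In that list KCNE3, a potassium channel subunit, had 0.22 ± 0.10 (unadjusted p = 0.0383 in limma), 1 of 11 with an unadjusted p under 0.05 (2.34% of all genes). The medians of the parietal, endocrine, surface mucous and chief cell lists lay between -0.012 and 0.0090, and each turned sign under at least 1 other scaling, weighting or filter.

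Surface mucous genes were the gastric list with the widest spread. Of 20 listed members 10 were measured. The markers MUC5AC, TFF1, CTSE, PSCA, VSIG1 and ANXA10 were among those with no cluster under these symbols, so the list covers these cells only in part. Of the 10 measured members 5 had a positive difference (median -0.0011). At an unadjusted p under 0.05 there were 2 higher (1.37% of all genes) and 1 lower (0.962% of all genes). Beside MUC13, DUOXA2, the maturation factor of a hydrogen peroxide-generating oxidase, had log2 levels from 4.73 through a median of 5.43 to 6.30 in the 12 MCT piglets and from 4.53 through 5.16 to 5.64 in the 12 CON piglets. Of the MCT piglets 5 lay above every CON piglet, and the difference was 0.38 ± 0.16 (SE) (unadjusted p = 0.0287), with 0.65 in CA and 0.11 in SA. SLC5A5, the iodide transporter, had levels from 7.97 through a median of 8.90 to 9.83 in the 12 MCT piglets and from 8.55 through 9.51 to 9.84 in the 12 CON piglets. The MCT piglets reached lower, 4 of them below every CON piglet, and the difference was -0.42 ± 0.20 (SE) (unadjusted p = 0.0420). CLCA1, a protein secreted with mucus, had -0.38 ± 0.23, with -0.035 in CA and -0.72 in SA, and -0.22 over both without CA MCT pig 12.

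In most lists of immune responses more members had positive than negative differences, with the type I interferon list evenly divided, and no gene passed. For responses to TNF and NF-kB, the transcription factor of inflammatory signalling, 25 of 30 measured genes had a positive difference over both (median 0.081), 21 of 30 in CA and 26 of 30 in SA, and 4 of 30 had an unadjusted p under 0.05, all higher, where over all genes 51.1% were positive and 1.37% were higher at such a p. CXCL8, the neutrophil attractant interleukin 8, had log2 levels from 4.05 through a median of 4.50 to 4.74 in the 12 MCT piglets and from 3.52 through 4.18 to 4.89 in the 12 CON piglets. The CON piglets spanned the wider range, from pig 14 to pig 4, and the difference was 0.26 ± 0.12 (SE) (unadjusted p = 0.0408). IL1A, the cytokine interleukin 1 alpha, had levels from 4.91 through a median of 5.43 to 6.74 in the 12 MCT piglets and from 4.79 through 5.11 to 6.11 in the 12 CON piglets. The level was above the CON median in 11 of 12 MCT piglets, with SA MCT pig 20 far up, and the difference was 0.36 ± 0.17 (SE) (unadjusted p = 0.0457 in limma). The difference of IL1A was 0.25 without SA MCT pig 20 and 0.44 without SA CON pig 18. NFKBIA, the inhibitor that NF-kB induces against itself, had 0.14 ± 0.061 and CXCL2, another neutrophil attractant, 0.18 ± 0.067. Renewed quantile normalization left 1 of the 30 with an unadjusted p under 0.05, a higher one, where 157 of 10912 genes were higher at such a p. These 30 were the measured ones of 50 listed genes. With 1 piglet left out in turn, the list median ran from 0.054 without SA MCT pig 20 to 0.11 without SA CON pig 18.

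Receptors of microbial products gave 13 of 20 positive differences (median 0.031) and 3 of 20 with an unadjusted p under 0.05, all higher (1.37% of all genes). Without CA CON pig 4 the median was 0.017. TLR4, the receptor of lipopolysaccharide, had log2 levels from 6.07 through a median of 6.23 to 6.58 in the 12 MCT piglets and from 5.80 through 6.05 to 6.52 in the 12 CON piglets. All 12 MCT piglets were above the CON median and 7 CON piglets were below every MCT piglet. The difference was 0.21 ± 0.085 (SE) (unadjusted p = 0.0211, adjusted p = 0.9999 in limma), 0.27 in CA and 0.15 in SA. NLRP3, the sensor of an inflammasome, was likewise above the CON median in 12 of 12 MCT piglets and had 0.21 ± 0.078, and TIRAP, an adaptor of TLR4, had 0.16 ± 0.067. TLR4, CCL2 and CXCL10 were included because the study's text discusses them with respect to diet on these samples, so their values are not independent evidence of a direction.

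Of 49 measured chemokines and cytokines 29 had a positive difference (median 0.032) and 6 had an unadjusted p under 0.05, all higher, where 51.1% of all genes were positive and 1.37% higher at such a p. CXCL2, CXCL8 and IL1A belong to this list and to that of TNF and NF-kB, so the counts are not separate. In CA 23 of 49 were positive (median -0.021) with 0 at such a p. In SA 35 of 49 were positive (median 0.069) with 5 higher at such a p (1.21% of all genes). CCL2, a monocyte attractant, had log2 levels from 6.81 through a median of 7.57 to 8.21 in the 12 MCT piglets and from 6.78 through 7.29 to 8.10 in the 12 CON piglets. The ranges nearly coincided, and the difference was 0.25 ± 0.14 (SE), made up of -0.072 in CA and 0.57 in SA (interaction, unadjusted p = 0.0356). CCL8, from the same family, had 0.25 ± 0.10 and CXCL16, which binds a chemokine receptor of T cells, 0.19 ± 0.089. Among responses to interleukin 2, 18 of 26 were positive (median 0.039, or 0.015 with 16 positive without CA CON pig 4). PIM1, a survival kinase, had 0.30 ± 0.11 (unadjusted p = 0.0136 in limma), 1 of 26 with an unadjusted p under 0.05 (2.34% of all genes). Of 35 complement and coagulation genes 23 were positive (median 0.033, or 0.020 without pigs 4, 10 and 22) and 0 had an unadjusted p under 0.05. F13A1, the clot-linking transglutaminase, had 0.28 ± 0.16 there, and 0.15 without CA CON pig 4.

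By the gap between list medians, type I interferon genes gave the most unlike diet values in the 2 microbiota groups. In the type I list, the antiviral genes, 13 of 26 measured members had a positive difference over both (median 0.0072), against 5 of 26 in CA (median -0.32) and 26 of 26 in SA (median 0.25). The mean log2 level of the list, centred per gene, was 0.10 ± 0.26 (SD, n = 6) in CA CON and -0.14 ± 0.28 in CA MCT. It was -0.11 ± 0.25 in SA CON and 0.15 ± 0.52 in SA MCT. The groups overlapped, and SA MCT pig 22 was the highest of all 24 at 1.07. Without pigs 4, 10 and 22 the median was -0.16 in CA, 0.073 in SA and -0.030 over both, and with renewed quantile normalization it was -0.020 over both. With 1 piglet left out in turn, the median over both ran from -0.13 without SA MCT pig 22 to 0.087 without SA MCT pig 24. An unadjusted interaction p under 0.05 was found for 2 of 26 members, both higher (1.26% of all genes), and none passed in limma.

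CXCL10, a chemokine that both interferon types induce, had log2 levels from 4.87 through a median of 5.45 to 6.39 in the 12 MCT piglets and from 3.71 through 5.41 to 6.69 in the 12 CON piglets. The CON range enclosed the MCT range, from pig 13 at the bottom to pig 4 at the top. The difference was 0.33 ± 0.21 (SE), with -0.064 in CA and 0.72 in SA, and 0.21 over both without SA CON pig 13. OASL, an antiviral protein, had 0.26 ± 0.17, and 0.10 without SA MCT pig 22, which held its highest level. In the list of interferon gamma, the macrophage-activating interferon, 21 of 26 members were positive over both (median 0.11), 10 of 26 in CA (median -0.029) and 23 of 26 in SA (median 0.19). An unadjusted p under 0.05 was found for 3 of 26 (2.34% of all genes), SLA-DMA, which loads peptides on class II molecules, with 0.17 ± 0.067, GBP2, a guanylate-binding protein, with 0.15 ± 0.067, and CIITA, the activator of class II genes, with 0.14 ± 0.062.

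**Figure D4:**
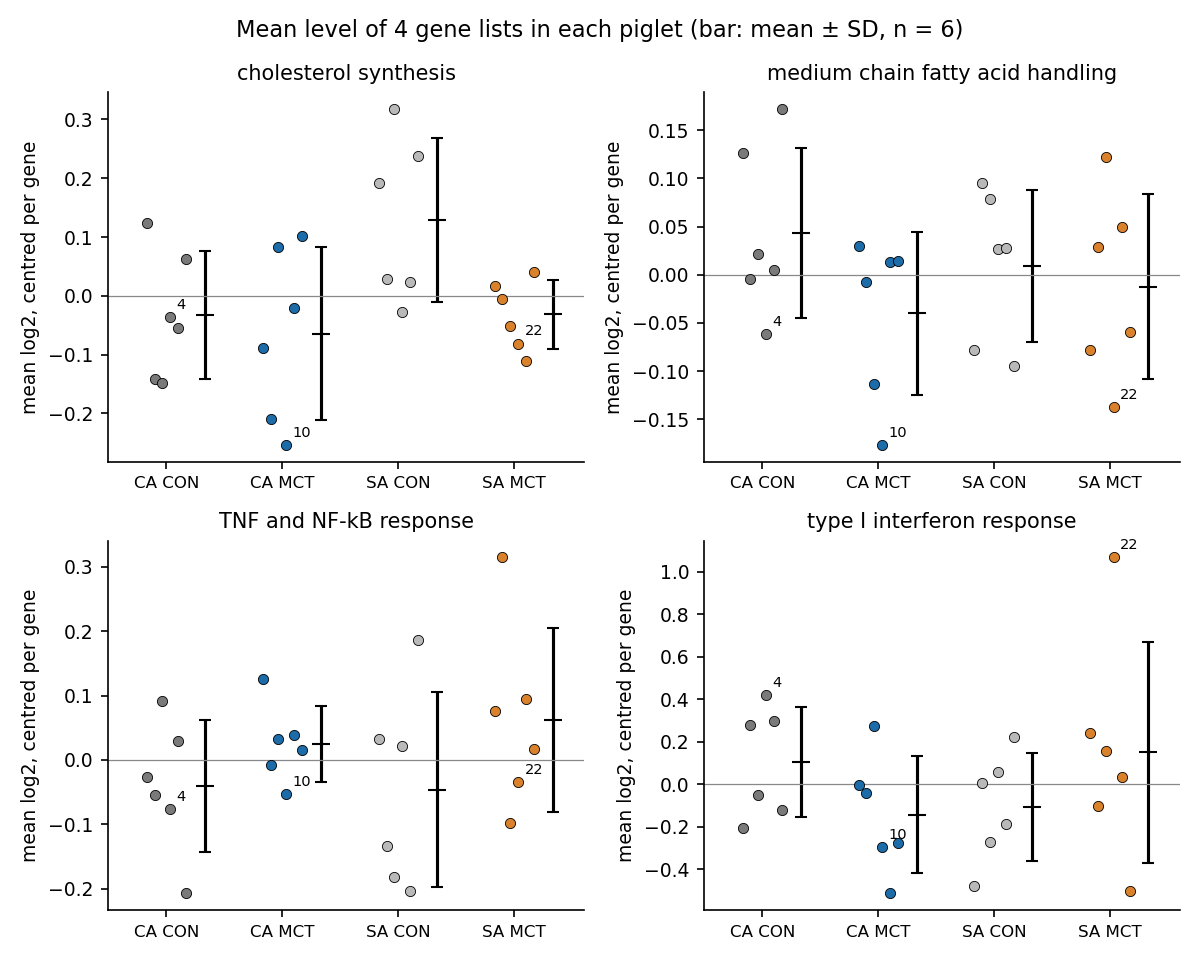
Mean log2 level of 4 gene lists in each piglet, each gene centred on its mean over the 24 arrays, by group, with the mean ± SD of 6 piglets beside the points and pigs 4, 10 and 22 numbered. Piglets of both diets overlap in every list, and pig 22 is the highest piglet for the type I interferon list.

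Markers of T and cytotoxic cells also had more positive differences in SA than in CA, but they were dim. The mean log2 level of the T cell markers per piglet had a median of 4.25 on MCT and 4.19 on CON. For cytotoxic markers it was 3.87 and 3.86, and for neutrophil markers 4.04 and 4.03, where the median gene had 5.26. The interaction was positive for 18 of 21 T cell and 16 of 21 cytotoxic markers. At an unadjusted interaction p under 0.05 in limma there were 1 of 21 and 3 of 21, all higher (1.26% of all genes), and none passed. For T cells 14 of 21 markers had a positive difference over both (median 0.044), 7 of 21 in CA (median -0.054) and 20 of 21 in SA (median 0.12). Their summed intensity lay between 363 and 598 in MCT piglets and between 416 and 567 in CON piglets, and their part in the values of the immune lists was not tested. For cytotoxic cells the counts were 12 of 21 over both, 5 in CA and 14 in SA, and NCR3, an activating receptor of NK cells, had 0.16 ± 0.060. Monocyte, macrophage and dendritic cell markers were positive in 19 of 25 (median 0.045). Among them MSR1 had 0.13 to 0.23 when each piglet was left out, while LGALS3, the lectin galectin 3, had -0.23 ± 0.11 (-0.15 without SA CON pig 18). Neutrophil markers were positive in 4 of 12 (median -0.057), where S100A8 had -0.082 ± 0.078. Without CA CON pig 4 the monocyte median was 0.028, the neutrophil median -0.021 and the difference of S100A8 -0.020. B and plasma cell markers were positive in 6 of 13. BTK, a kinase of the B cell receptor, had 0.18 ± 0.070, while CD79B had -0.20 to -0.10 when each piglet was left out. Over both, no marker passed in limma. At an unadjusted p under 0.05 (2.34% of all genes) there were 0 of 21 T cell, 1 of 21 cytotoxic, 1 of 13 B and plasma cell, 0 of 25 monocyte and 0 of 12 neutrophil markers.

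Markers of the layers below and beside the oxyntic glands gave small medians. Fibroblast markers were positive in 12 of 17 (median 0.031), smooth muscle markers in 10 of 13 (0.048), endothelial markers in 3 of 13 (-0.011) and markers of intestinal epithelium in 13 of 19 (0.025). Without pigs 4, 10 and 22 the fibroblast median was 0.012. The endothelial one was -0.029 without pig 4 and 0.017 without SA MCT pig 22. The smooth muscle median also turned sign, with -0.015 without CA MCT pig 7 and 0.12 without SA CON pig 14. In the list of enteric neurons and glia 7 of 14 were positive. CHAT, the enzyme of acetylcholine synthesis, had -0.19 ± 0.091 (unadjusted p = 0.0469 in limma), 1 of 14 with an unadjusted p under 0.05 (2.34% of all genes). The markers UCHL1 and STMN2 went the other way, with 0.34 to 0.60 and 0.19 to 0.35 when each piglet was left out. Squamous epithelium gave 4 of 7 positive, pancreas 5 of 11, skeletal muscle 7 of 11, adipocyte 7 of 13, mast cell and eosinophil 4 of 7 and erythroid cells 2 of 5, with 0 at an unadjusted p under 0.05 in each.

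Growth, stress and protein synthesis lists were near 0 over both, some with unlike values in the microbiota groups. Ribosome biogenesis genes were positive in 15 of 25 over both (median 0.010), in 21 of 25 in CA (median 0.12) and in 4 of 25 in SA (median -0.071), and without CA CON pig 4 the CA median was 0.061 and that over both -0.00075. NOP14, a ribosome assembly factor, had -0.18 ± 0.074, 1 of 25 with an unadjusted p under 0.05 (2.34% of all genes). Protein secretion genes were positive in 3 of 25 over both (median -0.032), in 12 of 25 in CA (median -0.0051) and in 2 of 25 in SA (median -0.079). TMED9, a cargo receptor of early secretory transport, had -0.11 ± 0.053, 1 of 25 with an unadjusted p under 0.05 (2.34% of all genes). Unfolded protein response genes were positive in 12 of 26 over both (median -0.0091), in 19 of 26 in CA (median 0.051) and in 6 of 26 in SA (median -0.070). Their interaction had an unadjusted p under 0.05 in limma for 23.1% of members (2.53% of all genes), 2 higher and 4 lower, and none passed. Heat shock genes were positive in 4 of 19 (median -0.056), where HSPE1, a mitochondrial chaperonin, had -0.076 ± 0.054, DNA replication genes in 6 of 18 (-0.038), mitosis genes in 14 of 30 (-0.010) and matrix remodelling genes in 19 of 30 (0.022). Without CA CON pig 4 the medians of DNA replication and mitosis were -0.067 and -0.027, and without pigs 4, 10 and 22 that of heat shock was -0.0052 and that of mitosis 0.028. Members of a list share the arrays and the cells, so these counts are not counts of independent events.

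**Figure D5:**
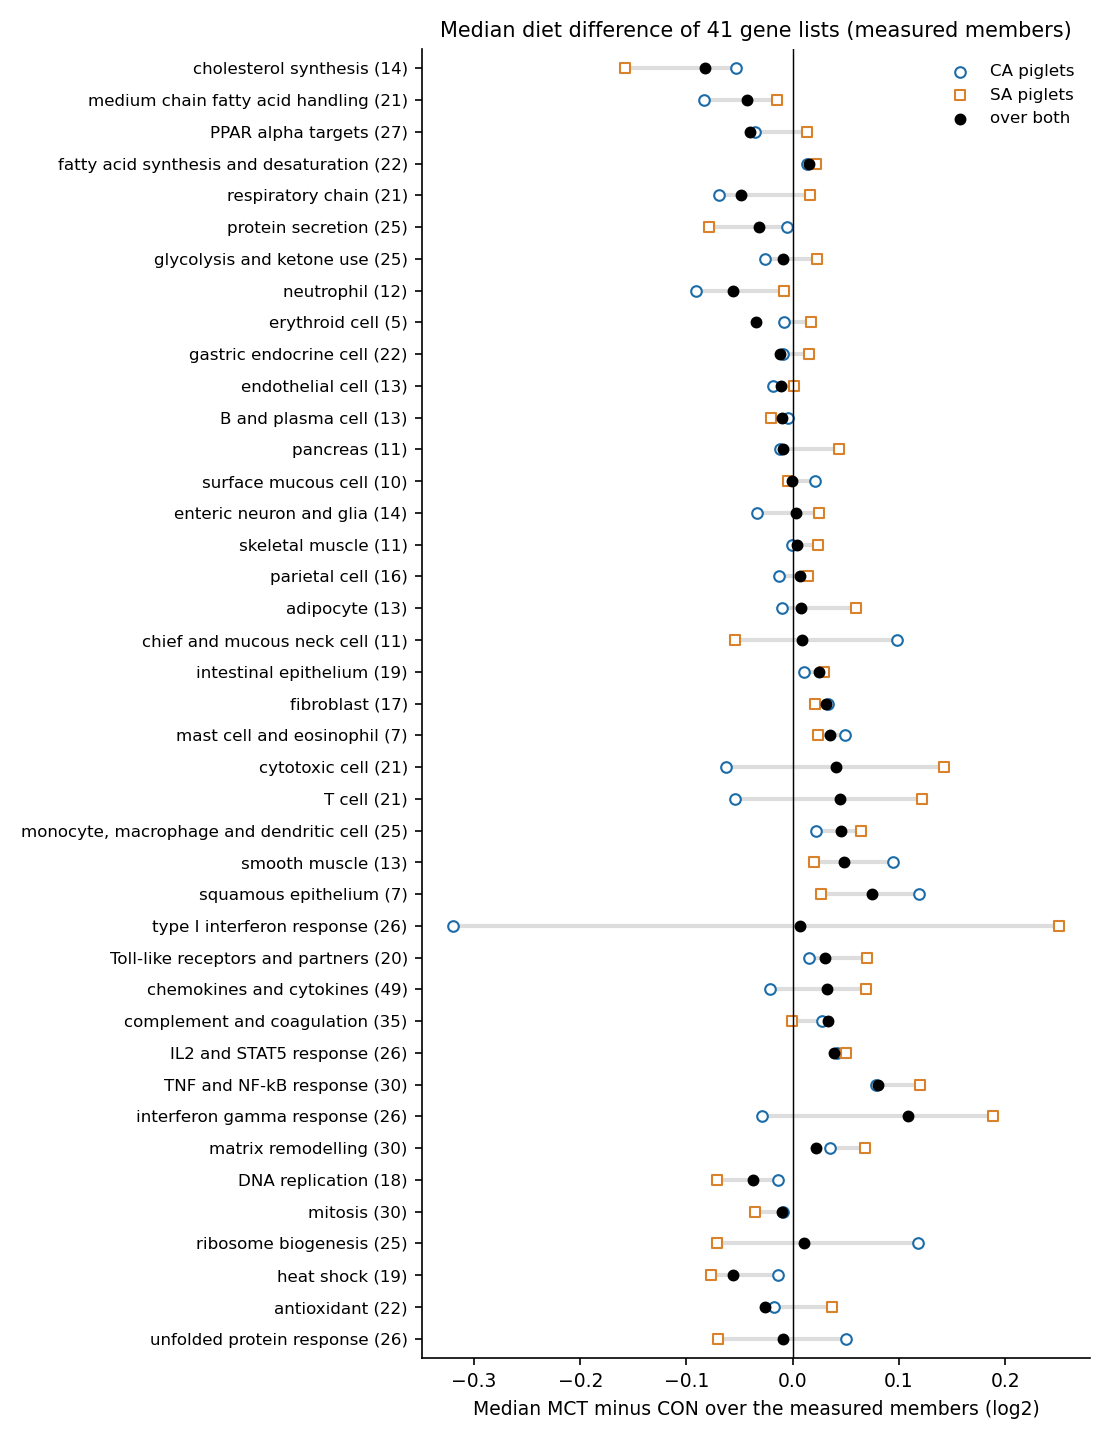
Median MCT minus CON difference in log2 units over the measured members of 41 gene lists, their number in brackets, over both microbiota (filled), in CA (open circles) and in SA (open squares). Over both, all medians but that of the interferon gamma response lie within 0.1 of 0, cholesterol synthesis is the lowest, that of interferon gamma response the highest, and the type I interferon list has the widest gap between CA and SA.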

How the data were processed

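Log2 of the deposited intensity was compared in 24 arrays (Affymetrix porcine gene arrays), 1 per piglet. Per the labels the authors had summarised the scans by Robust Multichip Analysis, which corrects background and normalizes quantiles, and the deposited intensity was on a linear scale. Of 27558 transcript clusters 11982 carried 1 symbol in the platform annotation, 373 carried several and were left out, and the brightest cluster per symbol left 10912 genes. The 4 group means were fitted in limma 3.58.1 (R 4.3.3) with 20 residual degrees of freedom, with moderated t tests on the mean of the within-CA and within-SA differences, each difference and the interaction, and Benjamini-Hochberg adjustment over all genes (threshold 0.05). The fit was tested on simulated data. Named genes were the 12 highest and 12 lowest by moderated t, genes with an unadjusted p under 0.05 in CA and in SA, up to 4 leading members of each described list and fixed genes of gastric function, lipid metabolism and the study's text. Of 1202 genes in 41 lists 777 were measured. The members and lists were chosen with earlier results of these data known, so they are no independent support. Lists are described by counts and medians, without a test. Alternatives were another cluster rule, a filter on dim clusters, array weights, renewed scaling, other variance models, an additive model and arrays left out. No sequences were used here.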

Additional observations from a re-analysis of the deposited data

Results flagged for a closer look

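The level of each named gene and the mean of each list were examined within the 4 groups of 6 piglets, and a piglet was noted where its gap to the nearest other piglet as a share of the group's range was over Dixon's critical value for 6 values at the 95% level. Chance marks about 5% of groups in this way. Of 440 gene groups 41 were marked (9.32%) and of 164 list groups 11 (6.71%), with CA CON pig 4 in 14 and CA MCT pig 10 in 8 of them. No explanation of these values was tested.

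In log2 level, CA CON pig 4 stood high for CXCL10 (6.69), LOC100154334 (4.44), MPO (3.88), NTS (3.77), PNMT (3.54) and TEKT5 (3.96), and low for BTK (2.62), CLCN6 (4.56), CPE (7.05), GPAM (4.71), SLA-DMA (5.02) and TCF7 (4.42). CA MCT pig 10 lay high for CFTR (8.70), SLC22A16 (2.97), THRSP (6.26) and TIRAP (6.16), and low for LOC100154334 (2.67), SCG5 (4.53) and SQLE (7.24). CA CON pig 6 was high for ACADM (8.45). CA MCT pig 9 was high for CXCL16 (9.53). CA MCT pig 12 was low for CLCA1 (6.00). SA CON pig 13 was low for GHRL (9.41). SA CON pig 14 was high for ACADL (5.71), STMN2 (6.06) and THRSP (5.51), and low for CFI (7.51). SA CON pig 15 was low for CTGF (5.28) and MSR1 (4.27). SA CON pig 16 was high for HADHA (8.90), and low for KCNE3 (6.33). SA CON pig 17 was low for SLC5A5 (8.55). SA CON pig 18 was low for CASP1 (7.07) and CCKBR (5.99). SA MCT pig 21 was high for ATP4A (11.92) and PDK4 (7.82). SA MCT pig 22 was high for OASL (5.74). SA MCT pig 23 was high for GPAM (5.50) and ZC3H12B (2.95), and low for TIRAP (5.44). SA MCT pig 24 was high for MPO (3.33).

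In the mean of a list, centred per gene on the log2 scale, the marked values were fatty acid synthesis and desaturation in CA CON pig 4 (-0.29), fatty acid synthesis and desaturation in SA MCT pig 20 (0.20), parietal cell in SA CON pig 18 (-0.50), smooth muscle in CA MCT pig 7 (0.78), endothelial cell in CA MCT pig 12 (-0.19) and pancreas in SA MCT pig 22 (-0.24). The others were adipocyte in CA MCT pig 10 (0.17), IL2 and STAT5 response in SA CON pig 15 (-0.047), ribosome biogenesis in CA CON pig 4 (-0.49), antioxidant in SA CON pig 18 (0.47) and protein secretion in CA MCT pig 12 (0.042).

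Diet differences that were unlike in CA and SA, such as those of FMO1, FLT3LG, FOXL1 and CCL2, did not pass as an interaction, for which 0 of 10912 genes passed in limma and 276 had an unadjusted p under 0.05.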

How the results depend on the processing

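In limma 0 genes passed over both microbiota under every alternative run, with 255 at an unadjusted p under 0.05 as reported and the lowest adjusted p between 0.997 and 1, or 0.423 for all 27558 clusters. The unadjusted counts moved. Over both they were 243 higher and 177 lower with array weights, 161 lower (157 higher, a share of 49.4% in place of 58.8%) with renewed quantile normalization, 98 higher (41.0%) with arrays centred on the median, 51 lower without the dimmest 40% of clusters, and 414 higher and 302 lower over all clusters. Without pigs 4 and 10 they were 163 and 113, and without pigs 4, 10 and 22 193 and 137. With each of the 24 piglets left out in turn they ran from 137 to 198 higher and from 87 to 139 lower. In SA they ran from 111 to 201 higher and 79 to 149 lower, and in the interaction from 117 to 231 higher, with the highest of these counts all without CA CON pig 4. Genes with a difference near 0 turned sign, namely FLT3LG (0.029) with array weights, MPO without pigs 4 and 10 (0.0095) and without pigs 4, 10 and 22 (0.020), and ANGPTL4 without the latter 3 (0.0010). Leaving out 1 piglet gave -0.018 to 0.019 for ATP4B, -0.046 to 0.029 for FLT3LG, -0.088 to 0.0020 for FMO1, -0.0058 to 0.047 for FOXL1 and -0.018 to 0.078 for GHRL, and -0.10 to 5.1e-05 for ANGPTL4. The cause of these moves was not tested. No paired analysis was possible because each piglet had its own number and no number was shared between groups. Array data give no depth, and the number of piglets limits the precision.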

Other observations

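Piglets on the same diet and microbiota differed in some genes by far more than the diets did. The median gene had a within-group SD of 0.20 on the log2 scale and 90% of genes lay under 0.33. AKR1C1, an aldo-keto reductase that acts on steroids, had the highest SD, 1.40, with log2 levels of 3.81 to 9.48 over the 24 piglets and a diet difference of -0.29 ± 0.52 (SE). MUC2, the main secreted mucin of the intestine, had an SD of 1.20 and levels of 3.72 to 8.39, with SA MCT pig 22 the highest, and a diet difference of -0.056 ± 0.44. KRT20, a keratin of differentiated gastric and intestinal epithelium, ran over 4.39 to 8.41 and had -0.072 ± 0.40. VSNL1, a neuronal calcium sensor, ran over 2.66 to 6.57 and had 0.28 ± 0.47, and CARTPT, which encodes a peptide of neurons and endocrine cells, ran over 2.31 to 5.29 and had 0.27 ± 0.31. BPIFB1, a secreted protein of mucosal surfaces, had levels of 6.92 to 10.39 and a diet difference of -0.021 ± 0.37, and PHEROC, a subunit of pheromaxein, 6.10 to 9.73 and -0.14 ± 0.31. SA CON pig 18 held the highest level of AKR1C1, BPIFB1, MMP13 and ZFAND2A. These genes were chosen for their spread after their values were seen.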
